A study of Mus musculus with 2 samples.

Results

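The genes described here are Mir193b and Mir365-1 on chromosome 16 and Mir193a and Mir365-2 on chromosome 11, a pair of paralogous miRNA loci. They are 4 of the 1973 miRNA genes in the deposited tables, chosen by gene symbol, and all 4 were found there. The choice was made with a result of these data known: the level of Mir193b differed between the libraries, so that difference is given as a description with no test. The samples were whole stomach of B6NCrl mouse embryos of mixed sex at embryonic day 15.5, and RNA shorter than 30 nt was sequenced. Stomachs of 62 embryos were pooled for replicate 2 and of 78 embryos for replicate 1, all labelled healthy, so the spread between animals is not seen. The pools are replicates of 1 group and no other condition was measured. The questions are how the loci compare within the tissue and how each gene compares between the pools.

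Each locus encodes a miR-193 hairpin followed by a miR-365 hairpin on the same strand. Each hairpin is cut to short mature miRNAs from its 5′ (5p) and 3′ (3p) arms, and bases 2 to 8 of a mature miRNA, the seed, are the main part that pairs with target mRNAs. In mouse brown fat the chromosome 16 locus has been described as a fat-enriched cluster that promotes brown adipocyte formation and represses muscle genes, though mice lacking the locus have been reported to form brown fat. The miR-193 miRNAs have also been described as growth suppressors in tumours and blood cells.

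Sequences from RefSeq (GRCm38.p6) were found for all 4 genes, and the mature miRNAs are shown because they decide which reads can be told apart. Capitals mark the seed, and each sequence runs 5′ to 3′.
miR-193b-3p: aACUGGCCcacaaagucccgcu
miR-193a-3p: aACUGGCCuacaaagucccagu
miR-193b-5p: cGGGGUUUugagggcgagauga
miR-193a-5p: uGGGUCUUugcgggcaagauga
miR-365-3p (from both loci): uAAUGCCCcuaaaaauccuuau
miR-365-1-5p: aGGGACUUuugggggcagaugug
miR-365-2-5p: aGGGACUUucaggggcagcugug

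The 3p arms of the miR-193 genes share a seed and differ at 3 of 22 bases, which are U9C, A20G and G21C going from miR-193a-3p to miR-193b-3p, counted from 1 at the 5′ end. Their 5p arms differ at 5 of 22 bases (U1C, U5G, C6U, C11A and A16G in the same direction), and both C6U and U5G lie in the seed. The 5p arms of the miR-365 genes share a seed and differ at 3 of 23 bases (C10U, A11G and C19A going from miR-365-2-5p to miR-365-1-5p). The miR-365 3p arm is the same 22 bases in both hairpins. No mature miRNA of another gene in the RefSeq table had any of these seeds.

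The whole miR-365 hairpins are shown because the identical stretch is longer than the mature miRNA. Capitals mark the run of 27 bases that both hairpins hold.
Mir365-1 hairpin: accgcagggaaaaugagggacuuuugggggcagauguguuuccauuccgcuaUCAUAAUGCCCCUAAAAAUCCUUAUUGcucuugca
Mir365-2 hairpin: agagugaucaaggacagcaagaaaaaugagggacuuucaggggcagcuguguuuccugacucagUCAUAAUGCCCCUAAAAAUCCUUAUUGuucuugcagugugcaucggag

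A read that lies inside that run matches both loci. The deposited tables hold reads matching several places in a line of their own, outside the gene counts. The counts of Mir365-1 and Mir365-2 below therefore lack reads that matched both hairpins, which any copy of the shared 3p miRNA within that run would do, and how many such reads there were cannot be told from the tables. The longest run shared by the Mir193a and Mir193b hairpins is 10 bases, and none of their 4 mature sequences occurs in another hairpin of the table. The tables give 1 count per gene, so the arms of a hairpin are not separated.

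In mm10 coordinates from GENCODE M21, Mir193b (ENSMUSG00000076972) lies on chromosome 16 at 13449523 to 13449601 and Mir365-1 (ENSMUSG00000065449) at 13453840 to 13453926, both on the plus strand with 4238 nt between them. Both lie in an intron of Gm15738, an antisense RNA gene annotated on the minus strand, and the nearest protein-coding genes are Mrtfb, 31994 nt upstream of Mir193b, and Parn. Mir193a (ENSMUSG00000065395) lies on chromosome 11 at 79711969 to 79712034 and Mir365-2 (ENSMUSG00000065489) at 79726400 to 79726511, again on the plus strand, with 14365 nt between them. Neither overlaps another annotated gene, and the nearest protein-coding genes are Rab11fip4, 13946 nt upstream of Mir193a, and Utp6. The spacing within the chromosome 11 locus is thus wider than within the chromosome 16 locus.

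Counts are of reads on the gene's own strand, and levels are CPM, the count scaled to the summed sense counts of all miRNA genes, which were 6675498 in replicate 2 and 5988677 in replicate 1. The limit that no count would allow (3 counts) was 0.449 CPM in replicate 2 and 0.501 CPM in replicate 1. Intervals are 95% exact Clopper-Pearson intervals, and like that limit they hold counting error alone. Both take each read as a separate draw. Amplified reads are not separate molecules, so both can be too small even for counting error. Markers of smooth muscle and epithelium were abundant, which does not test the tissue label. The smooth muscle genes Mir143 and Mir145a held 18.3% of counts in replicate 2 and 17.8% in replicate 1. Nearly all of this was Mir143, with 181344 CPM in replicate 2 and 175503 CPM in replicate 1. The 5 genes of the epithelial miR-200 family held 4.32% in replicate 2 and 4.35% in replicate 1.

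Mir193b was the highest of the 4 genes in both libraries. It had 244 counts in replicate 2 and 529 counts in replicate 1, or 36.6 CPM (interval 32.1 to 41.4) in replicate 2 and 88.3 CPM (81.0 to 96.2) in replicate 1, a mean of 62.4 ± 36.6 CPM (SD, n = 2). Replicate 1 is the higher, and since the gene was chosen with that difference known, nothing is read from the gap between the intervals. In order of mean level Mir193b was number 219 of the 1973 miRNA genes, of which 726 had a count in either library. It was number 242 in replicate 2 and number 207 in replicate 1.

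Mir193a, its paralog on chromosome 11, was lower, with close values in the pools. It had 129 counts in replicate 2 and 111 counts in replicate 1, or 19.3 CPM (interval 16.1 to 23.0) in replicate 2 and 18.5 CPM (15.2 to 22.3) in replicate 1. The mean was 18.9 ± 0.558 CPM (SD, n = 2), number 264 of all genes. The intervals overlap almost wholly, which does not show that the levels were equal.

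Both miR-365 genes were close to the limit of detection by the reads that could be placed. Mir365-2 had 16 counts in each library, or 2.40 CPM in replicate 2 (interval 1.37 to 3.89) and 2.67 CPM in replicate 1 (1.53 to 4.34), a mean of 2.53 ± 0.194 CPM (SD, n = 2). Mir365-1 had 3 counts in replicate 2 and 4 counts in replicate 1, or 0.449 CPM (0.0927 to 1.31) in replicate 2 and 0.668 CPM (0.182 to 1.71) in replicate 1. Its replicate 2 value is equal to the limit a count of 0 allows there, and its mean was 0.559 ± 0.155 CPM (SD, n = 2).

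The order of levels was Mir193b, Mir193a, Mir365-2 and Mir365-1 in both libraries. Within a library the counting intervals of neighbours in that order do not overlap, except those of Mir365-2 and Mir365-1 in replicate 1. Over the pools, the gap between the means of Mir193b and Mir193a is little larger than the SD of Mir193b. Together the 4 genes had 392 counts in replicate 2 and 660 counts in replicate 1, which is 0.00587% (0.00531 to 0.00648) and 0.0110% (0.0102 to 0.0119) of the counts. The miR-193 genes made up 95.2% of these 392 counts and 97.0% of these 660 counts. Reads that match both miR-365 hairpins are outside these counts, so the order and the shares hold for placed reads alone.

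**Figure D1:**
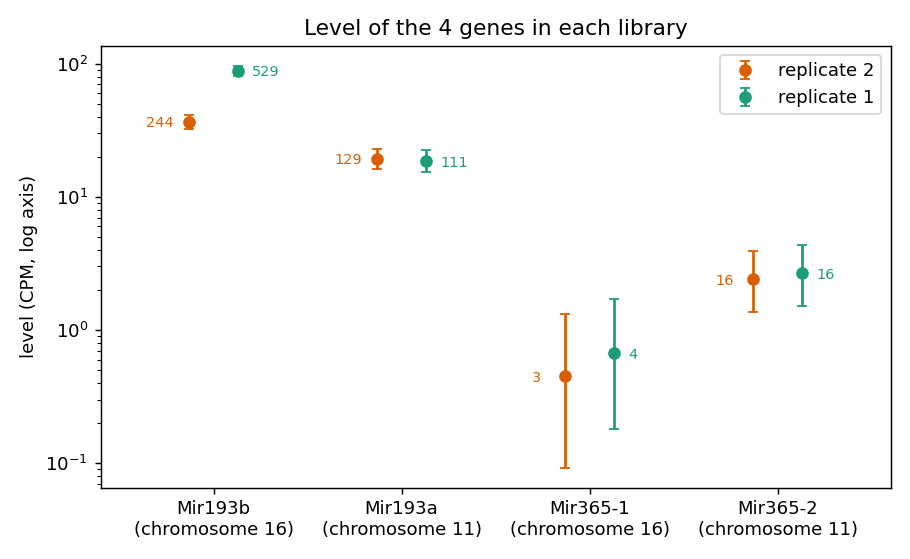
Level (CPM, log axis) of Mir193b, Mir193a, Mir365-1 and Mir365-2 in replicate 2 (left of each pair) and replicate 1 (right), with 95% exact counting intervals and the count printed beside each point. Mir193b, chosen with its difference known, stands at 36.6 CPM in replicate 2 and 88.3 CPM in replicate 1. The intervals of the other 3 genes overlap between libraries, which does not show equal levels.

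On the sense strand lay all but 1 of the reads of these genes. The exception was 1 opposite-strand count at Mir193a in replicate 2, under the limit of 3 counts.

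Between the loci, the chromosome 16 hairpin was the higher of the miR-193 pair and the chromosome 11 hairpin the higher of the miR-365 pair. Mir193b exceeded Mir193a by 1.89-fold in replicate 2 (exact interval 1.52 to 2.36) and by 4.77-fold in replicate 1 (3.88 to 5.90). On the scale log2(CPM + 1), used for all log2 ratios here unless said otherwise, the difference was 0.89 in replicate 2 and 2.19 in replicate 1, a mean of 1.54 ± 0.92 (SD, n = 2). The direction was the same in 2 of 2 libraries, but the size depended on which pool was counted.

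Mir365-1 had 3 counts against 16 for Mir365-2 in replicate 2, and 4 counts against 16 in replicate 1. The ratio of these counts was 0.188 in replicate 2 (interval 0.0350 to 0.655) and 0.25 in replicate 1 (0.0608 to 0.775), and on the log2(CPM + 1) scale the mean was -1.18 ± 0.06 (SD, n = 2). Both intervals lie under 1, so among the reads that could be placed the chromosome 11 copy was the more frequent in both pools. The tables do not give where in the hairpin a read lies, and reads that match both loci are outside these counts, so the order does not show how much miR-365-3p each locus makes.

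Summed over each locus, chromosome 16 had 247 counts and chromosome 11 had 145 in replicate 2, and chromosome 16 had 533 and chromosome 11 had 127 in replicate 1. The chromosome 16 locus thus held 63.0% of the members' counts in replicate 2 (interval 58.0 to 67.8) and 80.8% in replicate 1 (77.5 to 83.7). With 2 pools, the smallest two-sided p an exact sign-flip test could give is 0.5, so no test of these differences is reported.

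Within each locus the miR-193 gene led. Mir193b exceeded Mir365-1 by 81.3-fold in replicate 2 (interval 27.5 to 397) and 132-fold in replicate 1 (51.3 to 487). Mir193a exceeded Mir365-2 by 8.06-fold in replicate 2 (4.78 to 14.5) and 6.94-fold in replicate 1 (4.09 to 12.6). The gap was wider on chromosome 16 in both libraries, and the intervals of the 2 loci do not overlap in either. Both gaps compare a miR-193 gene, whose mature sequences occur in 1 hairpin, with a miR-365 gene whose 3p arm occurs in both hairpins.

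**Figure D2:**
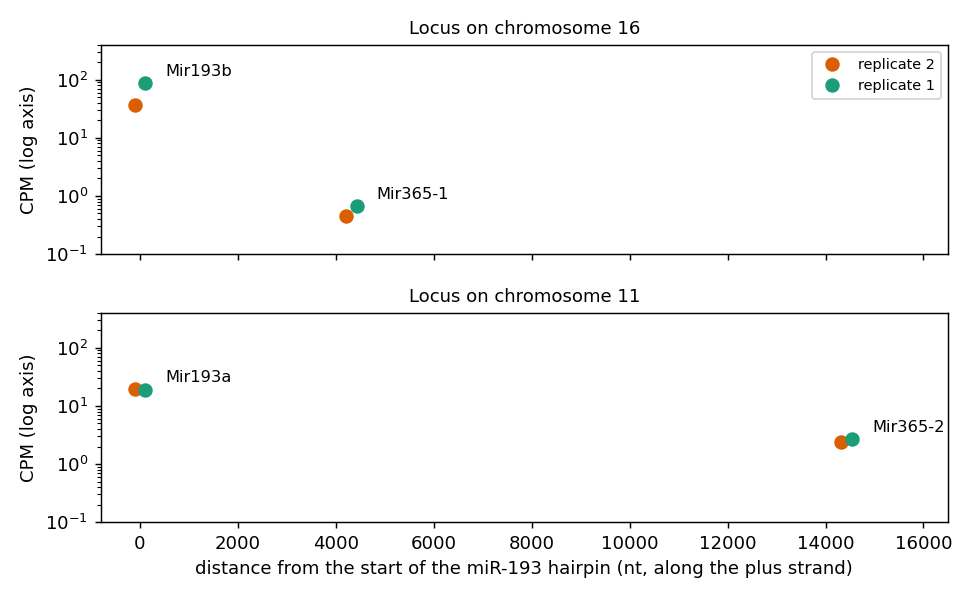
Level in CPM (log axis) of each gene against its distance in nt from the start of the miR-193 hairpin, for the chromosome 16 locus (top) and the chromosome 11 locus (bottom), with 1 point per library, set slightly apart so that both show. In both loci the miR-193 gene was counted higher than the miR-365 gene, whose 3p sequence occurs in both loci.

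Between the pools, Mir193b was the 1 gene of the 4 whose level lay past 2-fold. Its log2 ratio of replicate 2 over replicate 1 was -1.25, and without a pseudocount it was -1.27 (exact interval -1.5 to -1.05). Of the 466 genes with at least 10 summed counts, 5.15% were at least 2-fold lower and 0.644% at least 2-fold higher in replicate 2, and 12 had a lower ratio than Mir193b. Of genes with at least 100 summed counts, the share at least 2-fold lower was 5.02%. Since the gene was chosen with this difference known, nothing is read from its place.

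The genes of the chromosome 11 locus had ratios nearer 0. Mir193a had a log2 ratio of 0.06 (interval without a pseudocount -0.32 to 0.44) and Mir365-2 of -0.11 (-1.25 to 0.94). Mir365-1, the partner of Mir193b, stood at -0.20, or -0.57 without a pseudocount, with an interval of -3.34 to 1.99 that holds both no difference and the ratio of Mir193b. With 7 counts in all it was not among the 466 genes, and at this depth it cannot show whether the chromosome 16 hairpins moved together. The 3 other genes thus had intervals that reach both sides of 0, which does not show that their levels were equal. The median log2 ratio of the 466 genes was -0.11, an offset that the scaling sets under all of these values: with DESeq2 size factors Mir365-2, at 16 counts in each library, came to 0.

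**Figure D3:**
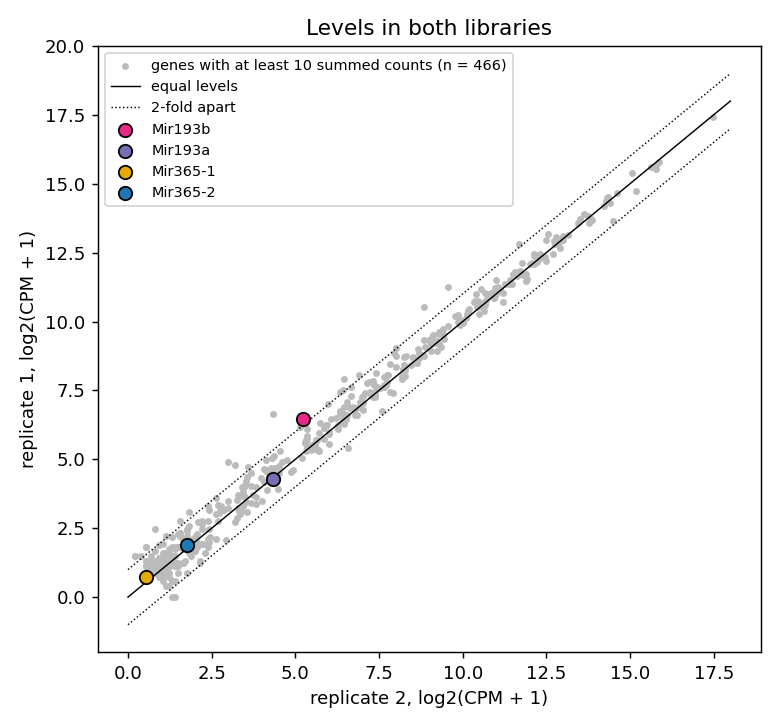
Level in replicate 2 (x axis) and replicate 1 (y axis), both as log2(CPM + 1), of the 466 genes with at least 10 summed counts and of the 4 genes described here. The solid line marks equal levels and the dotted lines 2-fold differences. Mir193b lies beyond the upper dotted line, and the others lie near the solid line. Mir365-1, with 7 counts in all, is drawn toward that line by the added 1 CPM.

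Markers of other cell types moved between the pools as well. Mir122, the main miRNA of hepatocytes, stood at 757 CPM in replicate 2 and 2445 CPM in replicate 1, a log2 ratio of -1.69. The red cell genes Mir144, Mir451a and Mir486 summed to 345 CPM in replicate 2 and 727 CPM in replicate 1, and 3 of 3 were at least 2-fold lower in replicate 2, against 5.15% of the 466 genes. Mir144 and Mir451a are close neighbours on the same strand of chromosome 11, so the 3 genes are not 3 separate loci. The smooth muscle genes went both ways, with log2 ratios of 0.05 for Mir143 and -0.51 for Mir145a. The endothelial gene Mir126a (-0.07), the myeloid gene Mir223 (-0.17) and the 5 epithelial genes (-0.21 to 0.05) had ratios near 0, and Mir375 of endocrine cells stood at 0.85. The stratified epithelial genes Mir203 and Mir205 stood at -0.62 and -0.46. The part of these cells in the Mir193b difference was not tested, and in whole tissue fewer cells of a type and less RNA per cell cannot be told apart.

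Genes nearest in level were found by the distance of log2(CPM + 1) over the 2 libraries, which gives 2 points a gene and describes level alone. Nearest to Mir193b were Mir6236 (0.33 away; 230 counts in replicate 2 and 424 in replicate 1), Mir33 (0.38; 263 and 410) and Mir3102 (0.53; 348 and 472). Nearest to Mir193a were Mir1198 (0.09), Mir346 (0.10) and Mir219a-1 (0.17), with 116 to 136 counts in replicate 2 and 116 to 119 in replicate 1. Mir5131, Mir3547 and Mir7666 lay nearest to Mir365-2, within 0.14, and 4 genes with 4 counts in replicate 2 and 6 in replicate 1, such as Mir3088, were equally near to Mir365-1.

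The Mir365 genes were set beside other numbered copies, meaning genes whose symbols differ by a last -1 or -2. There were 24 such pairs with at least 10 summed counts, and RefSeq lists the same mature sequence for both copies in 23 of them. The size of the log2 ratio between copies had a median of 1.72, and 18 of the 24 pairs were at least 2-fold apart. With 1.18 the Mir365 pair was number 16 from the widest, inside the range of the others. That place depends on the pseudocount, and the order of pairs without one was not computed. Without it, the Mir365 pair had a mean log2 ratio of -2.21. Its depth was low: its 39 summed counts were the second lowest, above the 12 of the Mir29b pair, while the median pair had 1138 and the highest, Mir92-1 and Mir92-2, had 33255. In the 23 pairs with both hairpin sequences in the RefSeq table, the hairpins shared runs of 22 to 28 bases with a median of 24, so the 27 bases of the Mir365 hairpins were among the longer runs.

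Other pairs show how unlike copies can be counted. As with the Mir365 genes, reads that match both copies are outside these counts, so the ratios do not show how much miRNA each copy makes. Mir181b-1 had 98 counts in replicate 2 and 113 in replicate 1, against 5082 and 5530 for Mir181b-2, a mean log2 ratio of -5.57 ± 0.04 (SD, n = 2). Mir92-1 exceeded Mir92-2 by 4.83 ± 0.10. Mir196a-1 had 0 counts in replicate 2 and 3 in replicate 1, against 129 and 600 for Mir196a-2. At the other end, Mirlet7c-1 and Mirlet7c-2 differed by -0.02 ± 0.06, Mirlet7a-1 and Mirlet7a-2 by 0.05 ± 0.09, and Mir29b-1 and Mir29b-2, near the limit of detection, by 0.02 ± 0.44.

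**Figure D4:**
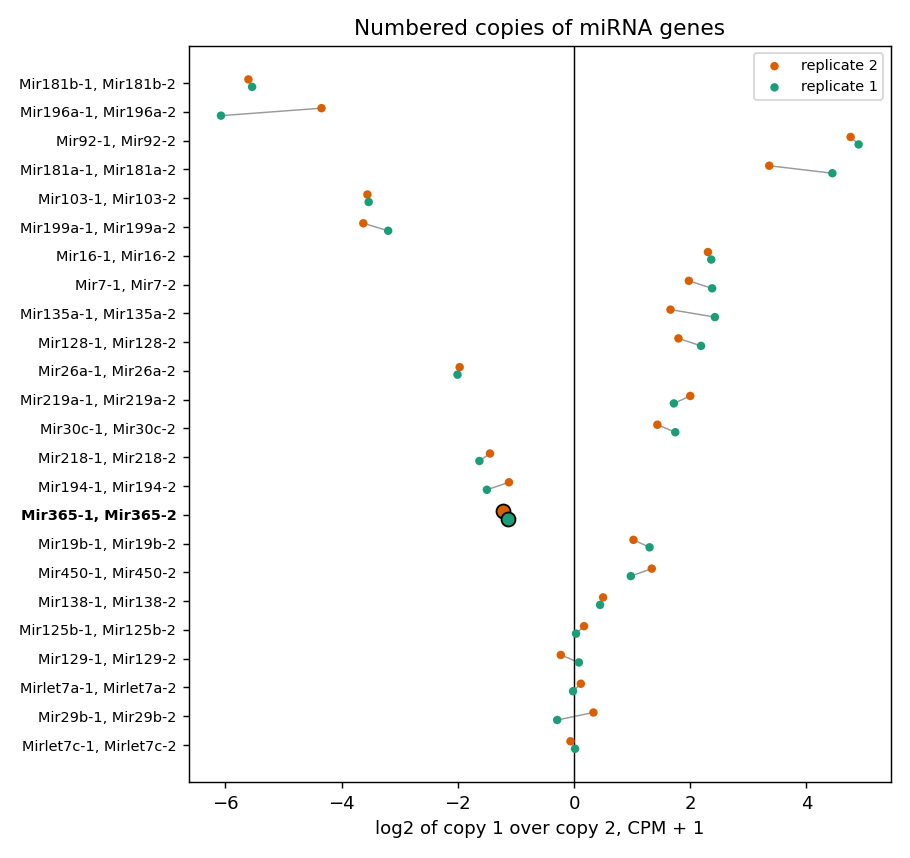
Log2 ratio of copy 1 over copy 2 (CPM + 1) for the 24 pairs of numbered copies, in replicate 2 (upper point of a pair) and replicate 1 (lower point), ordered by size with the widest at the top. Mir365-1 over Mir365-2, drawn with outlined points, lies at -1.23 in replicate 2 and -1.14 in replicate 1.

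Because the chromosome 16 locus is known from brown fat, the other miRNA genes reported to promote or inhibit brown or beige fat were read in the same libraries. Of 22 listed genes 21 were measured, and 18 had at least 10 counts in both libraries, as did 18.7% of all miRNA genes. Most had a higher mean level than the miR-193 genes: 15 of the 18 had a mean above that of Mir193b, some by a small margin and some by a large one. Mir93 led with 8210 ± 344 CPM, followed by Mir203, also a miRNA of stratified epithelium, with 7638 ± 2271 CPM, Mir106b with 4917 ± 565 CPM and Mir182 with 3510 ± 260 CPM (SD, n = 2 each). These genes are expressed in many tissues, so their levels do not mark brown fat.

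Between the pools 1 of the 18 lay past 2-fold, against 5.79% of the 466 genes in either direction. This was Mir196a-2, a gene in a Hox cluster that has been reported to induce brown adipocytes in white fat, with 129 counts in replicate 2 and 600 in replicate 1, a log2 ratio of -2.32 (exact interval without a pseudocount -2.66 to -2.10). Mir196b and Mir10b, genes of Hox clusters outside the list, were also lower in replicate 2, with log2 ratios of -1.66 and -1.13. Ratios of other Hox cluster genes are not given here. With 1 gene past 2-fold the list is not set apart from the 466 genes. Mir30b, reported to promote thermogenic genes, came near the limit with 671 counts in replicate 2 and 1174 in replicate 1 (-0.96). Mir455, reported to promote brown fat formation, stood at -0.14 with 9893 counts in replicate 2 and 9748 in replicate 1. The listed genes given ratios here are promoting ones, and the inhibiting genes moved alike. Of the 9 promoting genes 7 had a log2 ratio under 0 (median -0.30), and of the 9 inhibiting genes 9 did (median -0.33). The median log2 ratio was -0.31 over the 18 genes and -0.11 over all 466, of which 295 had a ratio under 0.

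**Figure D5:**
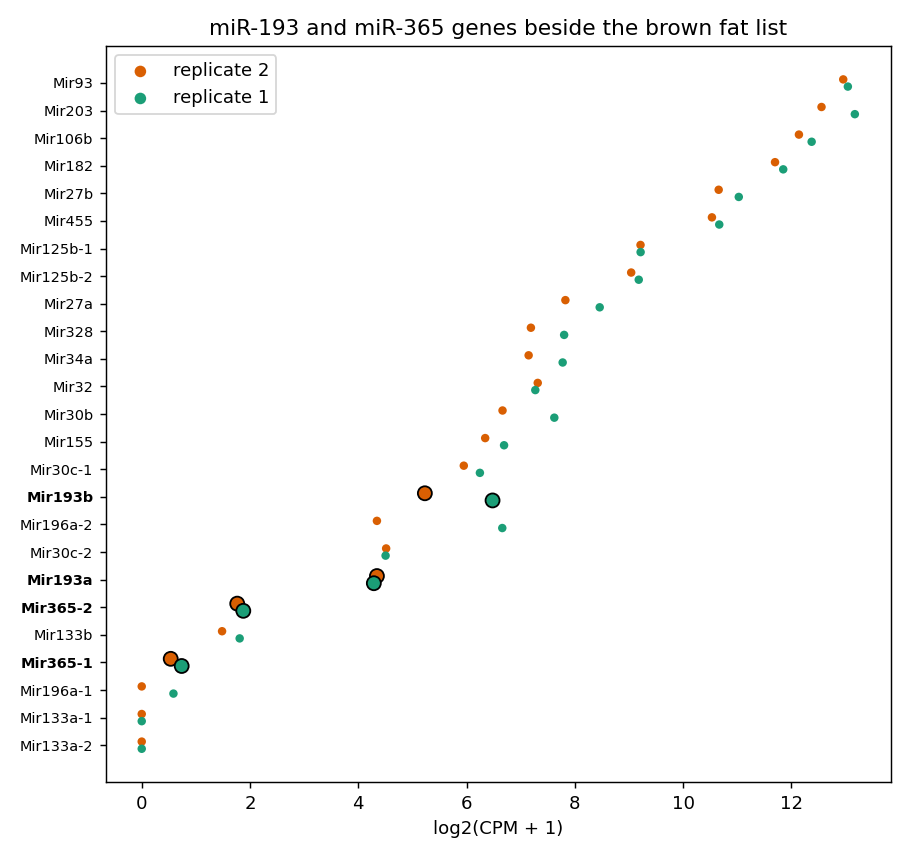
Level as log2(CPM + 1) of the 21 measured genes of the brown fat list and of the 4 genes described here (bold names, outlined points) in replicate 2 (upper point of a row) and replicate 1 (lower point), ordered by mean level. Mir193b and Mir193a lie in the lower part of the range, with Mir365-2 and Mir365-1 beneath them.

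Striated muscle miRNAs were read because the chromosome 16 locus has been described as a repressor of muscle genes. Of 9 listed genes 8 were measured and 5 had at least 10 counts in both libraries, as did 18.7% of all miRNA genes. Mir206, the skeletal muscle miRNA, had 1279 counts in replicate 2 and 635 in replicate 1, a mean of 149 ± 60.5 CPM (SD, n = 2) and a log2 ratio of 0.85. Mir208b of slow muscle stood at 67.1 ± 10.2 CPM, near Mir193b, with a log2 ratio of -0.31. Mir499 (7.29 ± 2.68 CPM) and Mir133b (2.15 ± 0.50 CPM) had lower levels, with log2 ratios of -0.67 and -0.33. Mir208a, a heart miRNA, was the 1 gene of the 5 past 2-fold, against 5.79% of the 466 genes, with 13 counts in replicate 2 and 35 in replicate 1 (-1.22, exact interval without a pseudocount -2.63 to -0.63). Neither Mir133a-1 nor Mir133a-2 was counted and Mir1a-1 had 1 count, but they have near-identical copies whose shared reads are outside these counts. Of the 5 genes 4 had a log2 ratio under 0, as did 295 of the 466 genes. The median of the 5 was -0.33, against -0.11 over all 466. The list summed to 261 CPM in replicate 2 and 198 CPM in replicate 1, but without Mir206 to 69.1 CPM in replicate 2 and 92.0 CPM in replicate 1. With 2 libraries no relation to Mir193b can be tested.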

How the data were processed

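Read counts per miRNA gene, as whole numbers, were deposited in a table for each library, made for mm10 with GENCODE M4 per the deposited description files. Which aligner and counter made them is not stated there. The tables carry no header; the first value of a gene row is the sum of the others, and the second, which holds nearly all counts of known miRNAs, served as the sense-strand count throughout. Lines that name no gene held 45.5% of reads in replicate 2 and 46.4% in replicate 1 and stayed out of totals. Symbols and coordinates come from GENCODE M21 (mm10), matched without version for 1894 of 1973 identifiers.

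CPM used summed sense counts as total, and log2 ratios CPM + 1. With 1 group there was no test. Called meant at least 2-fold apart among genes with at least 10 summed counts. The replicates are separate pools of embryos per the labels. Members and lists were chosen with earlier results of these data known. Named were the members, the 3 genes nearest each in level, the cell type markers, up to 4 top genes and every gene past 2-fold of the brown fat and striated muscle lists, and the 3 widest and 3 closest numbered copies. Mir455, Mir30b, Mir196b and Mir10b, which that rule does not name, were added with their values already seen.

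Alternatives covered totals, scaling, pseudocount, count minimum, fold limit, strand and leaving out each replicate. The ratio steps were checked on simulated data. Tools were R 4.3.3 with edgeR 4.0.16 (TMM) and DESeq2 1.42.0 (size factors), and Python 3.11.15 with pandas 2.3.3, scipy 1.17.1, numpy 2.4.6 and matplotlib 3.10.9.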

Additional observations from a re-analysis of the deposited data

Results flagged for a closer look

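Reads matching several places were outside all gene counts and numbered 3406967 in replicate 2 and 2946663 in replicate 1, or 27.0% and 25.5% of all reads. Both are far above the limit of 3 counts. Reads within the 27 bases shared by the Mir365 hairpins would be among them, and their number was not tested, since the tables do not split that line by sequence.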

How the results depend on the processing

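Mir193b stayed past 2-fold lower in replicate 2 under each alternative run, with log2 ratios of -1.26 (pseudocount 0.5) to -1.10 (DESeq2 size factors). These runs rescale the same counts, and the gene was chosen with that difference known, so they lend it no support. Mir193a stayed above 0 in the same runs (0.05 to 0.21). With all lines of the table as total, mean levels were 32.5 CPM for Mir193b, 9.91 for Mir193a, 0.292 for Mir365-1 and 1.33 for Mir365-2, and the share of the 4 genes was 0.00441%, since that total is larger. Genes at least 2-fold lower in replicate 2 numbered 24, but 12 with pseudocount 5, 15 with a minimum of 100, 65 at a fold limit of 1.5 and 6 at 3. Those higher numbered 3, but 6 with DESeq2 size factors, 8 with pseudocount 0.5, 1 with pseudocount 5, 6 with no minimum, 1 with a minimum of 100, 16 at a fold limit of 1.5 and 0 at 3. For low counts the pseudocount sets the size: Mir365-1 over Mir365-2 was -1.53 with 0.5 and -0.44 with 5, Mir193b over Mir365-1 was 3.49 with 5, and Mir193a over Mir365-2 was 2.68 with 0.5 and 1.67 with 5. The median for numbered copies was 1.92 with a minimum of 100, over 22 pairs, which leaves out the Mir365 pair. Leaving out a replicate gives back the value of the other library. Mir193b over Mir193a was then 0.89 or 2.19, and the chromosome 16 over the chromosome 11 locus 0.74 or 2.02. No ratio between or within the loci changed sign, which the values of each library above already show. No paired analysis was possible because both libraries belong to 1 group. Depth limits Mir365-1 most, with 7 counts in all.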
